A study of Mus musculus with 6 samples.

Results

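Galectins are lectins that bind galactose-bearing sugar chains on glycoproteins. They act outside the cell, where they link surface receptors and matrix proteins, and inside it, where some of them mark damaged lysosomes. Galectin-1 is a prototype galectin that pairs with itself, galectin-3 is the chimera type with a self-associating tail, and galectins 8 and 9 carry a pair of sugar-binding domains on 1 chain. Galectin-3 binding protein (Lgals3bp) is a secreted, heavily glycosylated scavenger receptor cysteine-rich protein that galectins bind, and galectin-1 is a known immunomodulatory product of stromal cells. The 5 genes Lgals1, Lgals3, Lgals8, Lgals9 and Lgals3bp were picked by symbol from a table of 56748 genes, and all 5 passed the filter on low counts, which left 14502 genes.

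The data were RNA sequencing counts from 6 libraries of mouse ADSC (adipose-derived stem cells), stromal cells grown from fat. The 3 libraries labelled mock carry the genotype WT, although the treatment protocol says that the comparison cells received an empty vector and the design text calls them unmodified. The 3 libraries labelled overexpressing came from ADSC transduced with the integrins VLA-4 and LFA-1 together. All 6 cultures were grown in normal-glucose DMEM with serum. The labels give neither the promoter that drives the integrins nor the strain, sex or age of the donor mice, and none says whether the libraries were separate cultures. The p-values therefore reflect only the variation among these 6 libraries, possibly technical.

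Library totals ran from 15723888 to 18381083 counts. The transduced genes did not follow the label. In CPM, counts at a common library size, Itga4 averaged 6.50 ± 1.48 under the label mock and 2.51 ± 0.28 under the label overexpressing (SD, n = 3). Itgb1, Itgal and Itgb2 were not higher in the second group either. Itgal had 7 counts in each group and Itgb2 had 38 and 15, so both were near the floor under either label. Whether the counts include reads from the transduced sequences was not tested. Every direction below is therefore between libraries as labelled. Of all tested genes, 45.3% were called by edgeR's quasi-likelihood test at an adjusted p under 0.05: in the group labelled overexpressing 22.3% were higher and 23% lower. Stromal markers were present, with Pdgfra at 106 ± 3.16 and 107 ± 2.45 CPM, while Nt5e and Lum were under 1 CPM in every library. Of 12 tested stromal markers 8 were lower and 0 higher. The summed level of the list ran from 27970 to 29670 CPM in the libraries labelled mock and from 15630 to 17550 CPM in the others. That sum mostly follows 2 collagen genes. Col1a1 fell from 12991 ± 626 to 5855 ± 763 CPM and Col1a2 from 6355 ± 229 to 2885 ± 189 CPM. Vim (3457 ± 62.9 and 3662 ± 107 CPM), Cd44, Pdgfra and Nt5e were not called.

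Of the 5 genes, 3 fell and none rose in the libraries labelled overexpressing, against a background of 23% of tested genes lower. Lgals3bp fell 5.31-fold and Lgals9 fell 2.45-fold, while Lgals1, the most abundant of the 5, fell 1.22-fold. A decrease of 2-fold or more was called for 4.84% of tested genes, and Lgals3bp and Lgals9 were both among them. Lgals8 and Lgals3 did not pass the test. In bulk RNA, fewer cells of a type and less RNA per cell cannot be told apart.

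**Figure D1:**
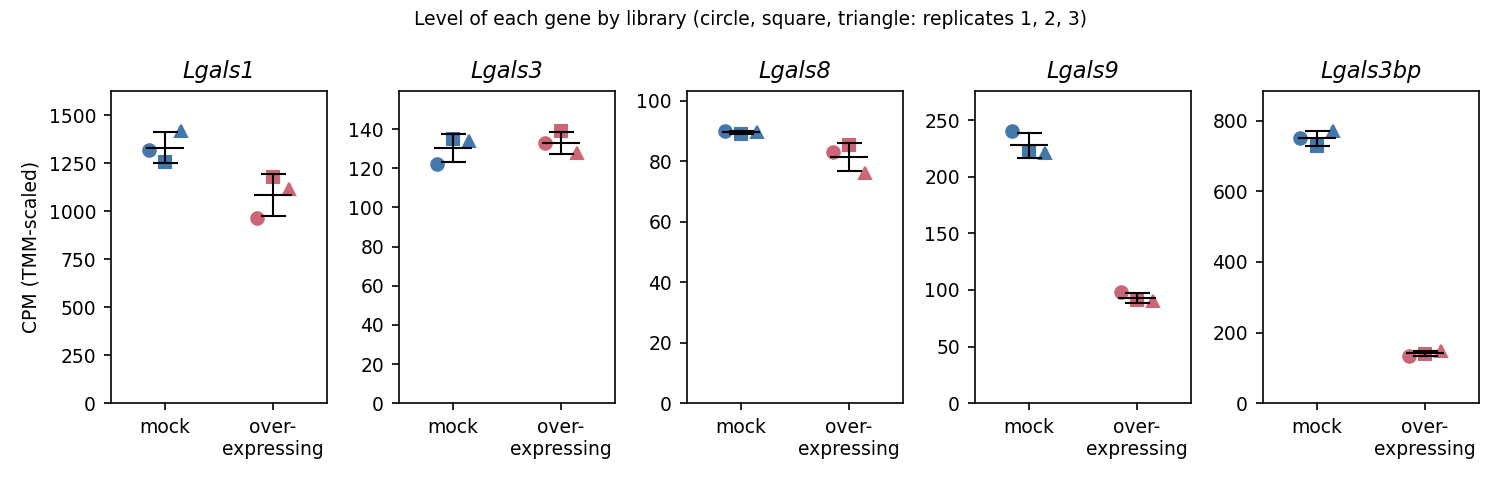
Level of each gene in each library, in CPM on TMM-scaled library sizes, with 1 panel and 1 linear axis from 0 per gene; symbols mark replicates 1 to 3, and bars give the mean and SD of 3 libraries. Lgals3bp lies between 727 and 769.9 CPM in the libraries labelled mock and between 135 and 149 CPM in the others, whereas the ranges of Lgals3 overlap.

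Lgals1 (ENSMUSG00000068220, chromosome 15, 78810925 to 78814665, plus strand, mm39) encodes galectin-1, which binds integrins, laminin and fibronectin and can act on T cells. It was at 1319, 1257 and 1417 CPM in mock replicates 1, 2 and 3 and at 965, 1176 and 1119 CPM in overexpressing replicates 1, 2 and 3. All 3 libraries labelled overexpressing lay below all 3 labelled mock, and the lowest was overexpressing replicate 1. The means were 1331 ± 80.9 and 1087 ± 109 CPM (SD, n = 3; log2 fold change -0.29, SE 0.068, edgeR adjusted p = 0.00116). The groups did not overlap for 53.4% of tested genes, and for 26.5% with the libraries labelled overexpressing lower. Also listed were 2 genes named as pseudogenes of Lgals1, and both had 0 counts in all 6 libraries. How reads that match several places were counted was not examined.

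Lgals3 (ENSMUSG00000050335, chromosome 14, 47605208 to 47623617, plus strand) encodes galectin-3, known in macrophages as Mac-2 and in many cells as a sensor of damaged lysosomes. It was at 122, 135 and 134 CPM in mock replicates 1, 2 and 3. In overexpressing replicates 1, 2 and 3 it was at 133, 139 and 128 CPM. The groups overlapped, with mock replicate 1 lowest and overexpressing replicate 2 highest. The log2 fold change was 0.03 (95% interval -0.094 to 0.16, edgeR adjusted p = 0.711), so a level of 0.937 to 1.11 times that of the libraries labelled mock was within the interval. Its sign turned without mock replicate 1, where the log2 fold change was -0.016.

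Lgals8 (ENSMUSG00000057554, chromosome 13, 12454296 to 12479825, minus strand) encodes galectin-8, which binds integrins and podoplanin and, inside cells, marks vesicles broken by bacteria. Its level was 89.9, 88.9 and 89.7 CPM in mock replicates 1, 2 and 3 and 83.0, 85.2 and 76.3 CPM in overexpressing replicates 1, 2 and 3. The groups did not overlap, and the libraries labelled mock lay closer together (coefficient of variation 0.618%) than the others (5.72%). The 1374 counts of overexpressing replicate 3 had a 95% Poisson interval of 1302 to 1449. Counting error alone is thus larger than 0.618%, and the difference in spread was not tested. The log2 fold change of -0.14 (95% interval -0.26 to -0.0065) did not pass after adjustment (edgeR adjusted p = 0.0806). The last 875 bases of the Lgals8 span (12454296 to 12455170) are shared with Heatr1 on the opposite strand, and since no source used here says whether the counting used strand, reads there cannot be assigned with certainty. Heatr1, a factor of ribosomal RNA synthesis, had 53.9 ± 4.84 and 59.6 ± 4.43 CPM (log2 fold change 0.14, edgeR adjusted p = 0.14).

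Lgals9 (ENSMUSG00000001123, chromosome 11, 78853800 to 78875772, minus strand) encodes galectin-9, a ligand of the T-cell receptor Tim-3 (Havcr2) that interferon induces in many cell types. Its level was 240.1, 222 and 221 CPM in mock replicates 1, 2 and 3 and 97.8, 91.4 and 89.9 CPM in overexpressing replicates 1, 2 and 3. The gap between the groups was wider than the spread inside either of them. The means were 228 ± 10.9 and 93.0 ± 4.17 CPM (SD, n = 3; log2 fold change -1.29, SE 0.060, edgeR adjusted p = 4.62e-14). Of 14502 tested genes, Lgals9 had the decrease of rank 485 by size.

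Lgals3bp (ENSMUSG00000033880, chromosome 11, 118283577 to 118292918, minus strand) encodes galectin-3 binding protein, also an interferon-induced product in many cell types. Its level was 752, 727 and 769.9 CPM in mock replicates 1, 2 and 3 and 135, 140.1 and 149 CPM in overexpressing replicates 1, 2 and 3. The highest library labelled overexpressing was far below the lowest library labelled mock. The means were 749.7 ± 21.5 and 141 ± 7.15 CPM (SD, n = 3; log2 fold change -2.41, SE 0.059, edgeR adjusted p = 7.66e-19), and the decrease ranked 143 by size. The authors' deposited table gives log2 fold changes of -2.42 for Lgals3bp, -1.30 for Lgals9, -0.30 for Lgals1, -0.14 for Lgals8 and 0.022 for Lgals3.

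**Figure D2:**
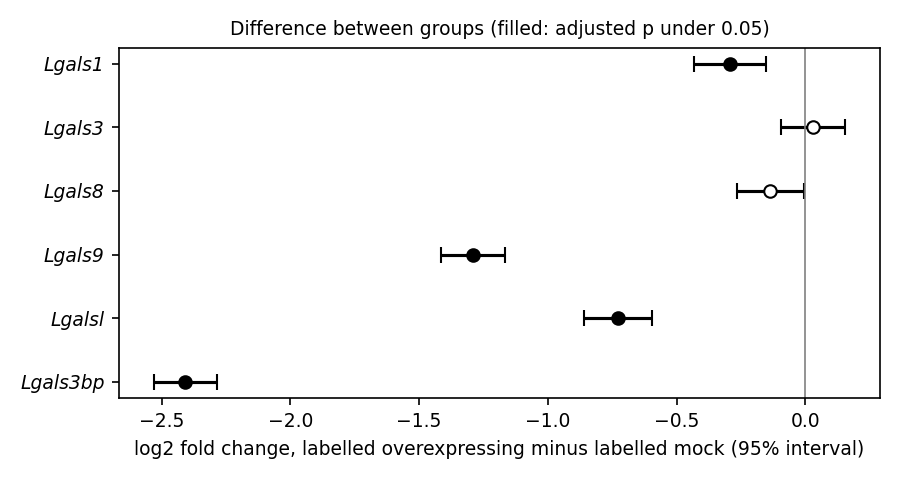
Log2 fold change of the 5 genes and of the galectin-related gene Lgalsl, libraries labelled overexpressing minus libraries labelled mock, with 95% intervals from the edgeR fit; filled points have an adjusted p under 0.05. Lgals3bp (-2.41), Lgals9 (-1.29), Lgalsl (-0.73) and Lgals1 (-0.29) lie left of 0 and are filled, and the points of Lgals8 (-0.14) and Lgals3 (0.03) are open.

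Since Lgals9 and Lgals3bp are known interferon-induced genes, they were set beside 30 interferon-stimulated genes, of which 29 matched the table and were tested and neither of the pair was a member. All 29 were lower in the libraries labelled overexpressing, with a median log2 fold change of -3.41 against 0.0052 over all tested genes. Isg15, a ubiquitin-like protein, had a log2 fold change of -5.27, and Oasl2, Ifit1 and the tetherin Bst2 had -4.81, -4.51 and -3.41 (edgeR adjusted p = 4.05e-21, 1e-19, 4.64e-20 and 4.99e-20). Of the 29, 19 fell further than Lgals3bp and 24 fell further than Lgals9 in log2 fold change. All 29 fell further than Lgals1, Lgals8 and Lgals3. The smallest decrease of the list, -0.45 in the ubiquitin ligase Trim25, lay beyond the log2 fold change of Lgals1. The part of interferon in the decreases of Lgals9 and Lgals3bp was not tested.

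**Figure D3:**
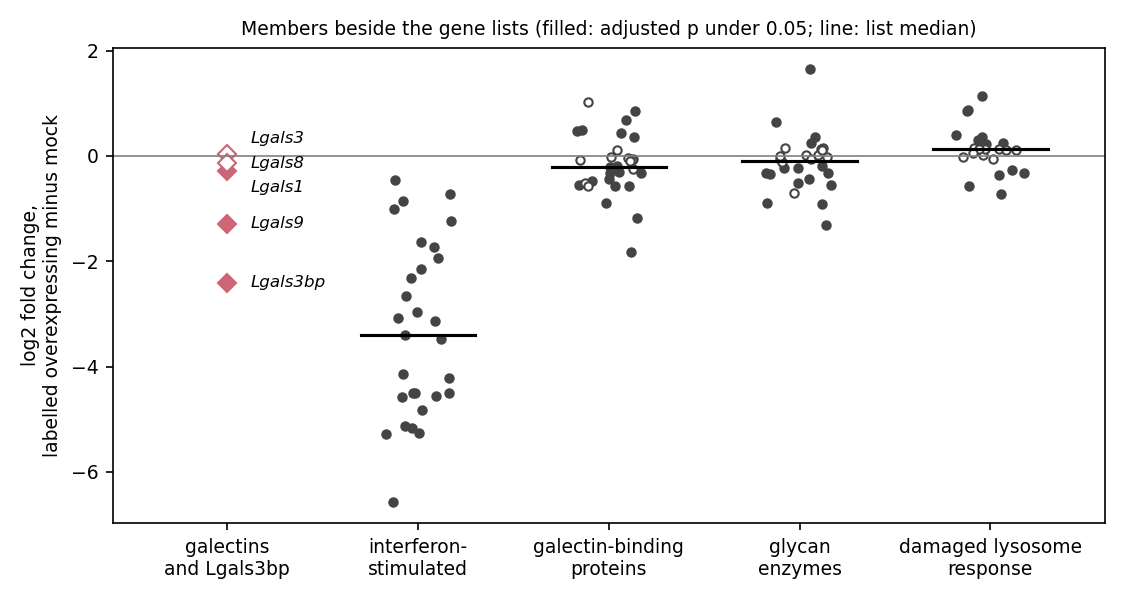
Log2 fold change, libraries labelled overexpressing minus libraries labelled mock, of the 5 genes (diamonds) and of the tested members of 4 gene lists, interferon-stimulated genes, galectin-binding proteins, glycan enzymes and genes of the response to damaged lysosomes (circles, with a line at the list median); filled symbols have an adjusted p under 0.05, and the sideways spread of the circles has no meaning. Lgals9 and Lgals3bp lie within the range of the interferon-stimulated genes (-0.45 to -6.56), and Lgals1, Lgals3 and Lgals8 lie above it.

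Promoter sequence from RefSeq (GRCm38.p6), 250 bases before to 50 after the annotated start, was matched for 4 of the 5 genes. The stretches before the start of Lgals3bp and Lgals9 are shown because these genes fell most, and capitals mark matches on either strand to sites that interferon regulatory factors can bind. They lie at chr11:118401960-118402059 (Lgals3bp, minus strand) and at chr11:78984925-78985084 and chr11:78984890-78984919 (Lgals9, minus strand, before and just after the start), in GRCm38.p6 and not in the mm39 positions given for the genes.
Lgals3bp: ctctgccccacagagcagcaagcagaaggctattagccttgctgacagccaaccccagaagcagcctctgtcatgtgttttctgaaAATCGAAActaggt
Lgals9: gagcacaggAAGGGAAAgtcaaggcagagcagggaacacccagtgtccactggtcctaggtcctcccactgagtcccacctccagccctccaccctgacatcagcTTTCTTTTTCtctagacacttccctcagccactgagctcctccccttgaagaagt
Lgals9 after the start: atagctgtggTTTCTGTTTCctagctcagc

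The interferon response element core, a pair of TTTC blocks with any 2 bases between them, searched on both strands, matched the Lgals9 window at 2 places, at -55 and at 16 from the start, and matched 3.44% of 32851 mouse promoter windows. It had no match in the Lgals3bp, Lgals3 and Lgals8 windows. The shorter core AANNGAAA, added after the Lgals3bp promoter had been seen, matched Lgals3bp once, at -14, and Lgals9 at -151 and inside both longer matches, since the longer core always holds the reverse complement of the shorter. It matched 23.9% of all windows and neither Lgals3 nor Lgals8. Of 23 interferon-list genes with a window, 11 held the longer core and 15 the shorter in any of their windows. These are counts of genes, whereas 3.44% and 23.9% are shares of single windows, so they are not directly comparable. The STAT dimer site TTCNNNGAA (8.3% of windows) and the AP-1 site TGANTCA (7.81%), both palindromic, had no match in the 4 genes' windows. Whether any factor binds the matched sites in these cells was not tested.

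Of the rest of the galectin family only Lgalsl, which encodes a galectin-related protein, passed the filter on low counts among the 6 genes found in the table. Lgalsl (chromosome 11, 20773576 to 20781056) was at 104, 104 and 111 CPM in mock replicates 1, 2 and 3 and at 60.5, 63.9 and 67.9 CPM in overexpressing replicates 1, 2 and 3. The groups did not overlap, and the mean fell from 106 ± 4.03 to 64.1 ± 3.73 CPM (log2 fold change -0.73, SE 0.064, edgeR adjusted p = 3.69e-09). Lgals2, Lgals4 and Lgals7 had 14, 23 and 16 counts over the 3 libraries labelled mock and 9, 28 and 12 counts over those labelled overexpressing. Their ratios of overexpressing to mock were 0.621 (95% counting interval 0.237 to 1.54), 1.18 (0.653 to 2.14) and 0.724 (0.313 to 1.63), and a difference was not detectable at this depth. Lgals12, an adipocyte galectin, had 2 counts, both in mock replicate 1, and Grifin, a lens protein of the family, had 0 counts in every library. With 0 counts a gene was below 0.159 to 0.185 CPM, the level of 3 counts in a library.

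Levels of different genes were compared per length, in the FPKM values that the authors deposited (fragments scaled by gene length and by a size for each library). That size was not the total count of the library, and no source used here says how it was set. Comparisons of FPKM between groups depend on it, whereas orders and shares within a library do not. In the libraries labelled mock the order was Lgals1 (1469 ± 83.0 FPKM), Lgals3bp (262 ± 6.37 FPKM), Lgals9 (106 ± 5.03 FPKM), Lgals3 (70.0 ± 3.83 FPKM) and Lgals8 (24.2 ± 0.078 FPKM). In the libraries labelled overexpressing it was Lgals1 (1193 ± 116 FPKM), Lgals3 (71.0 ± 2.74 FPKM), Lgals3bp (49.2 ± 2.52 FPKM), Lgals9 (43.2 ± 2.03 FPKM) and Lgals8 (21.9 ± 1.19 FPKM). No neighbours in either order overlapped over their 3 libraries, and the closest pair was Lgals3bp (47.0 to 51.9 FPKM) and Lgals9 (41.8 to 45.5 FPKM) in the libraries labelled overexpressing. Lgals3 thus moved above Lgals3bp and Lgals9 in the order at almost the same FPKM. Scaled by library size only, its log2 fold change was 0.14 (edgeR adjusted p = 0.06). By mean FPKM, Lgals1 ranked 13 in the libraries labelled mock and 12 in the others, among 28731 genes with a count. Lgals3bp ranked 136 and 843, and Lgals9 ranked 422 and 998.

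The summed FPKM of the 5 genes was 1919, 1850.2 and 2025 in mock replicates 1, 2 and 3 and 1249, 1472 and 1413 in overexpressing replicates 1, 2 and 3. Lgals1 made up 76.0% ± 0.84 of that sum in the libraries labelled mock and 86.5% ± 1.21 in those labelled overexpressing (SD, n = 3). The share of Lgals3bp was 13.6% ± 0.30 and 3.58% ± 0.25, and that of Lgals9 was 5.50% ± 0.39 and 3.16% ± 0.43. The share of Lgals3 was 3.63% ± 0.27 and 5.18% ± 0.46, although its own FPKM hardly differed. These shares are parts of a whole, so a lower share of 1 gene raises the others.

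**Figure D4:**
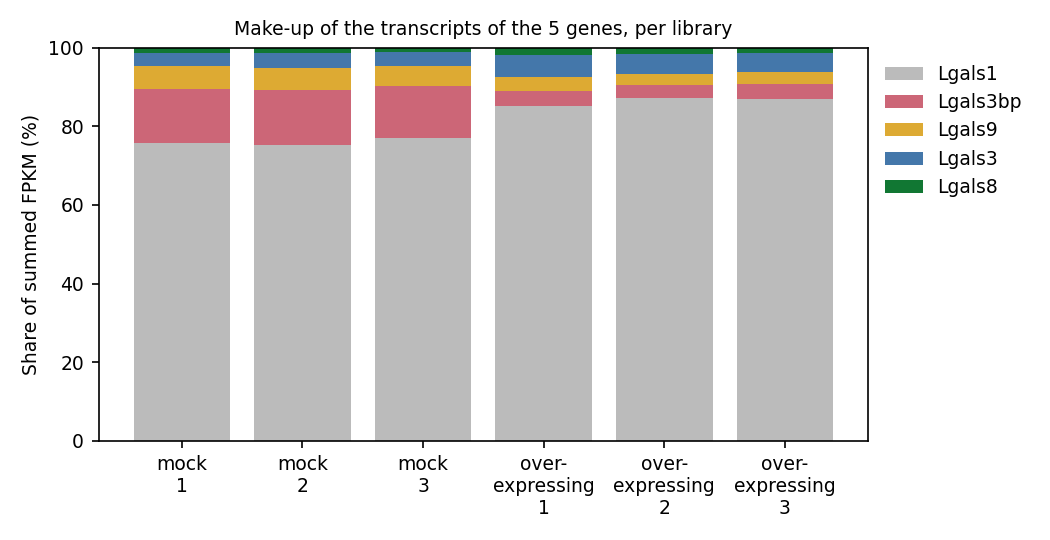
Share of each gene in the summed FPKM of the 5 genes, in percent, with 1 stacked bar per library. The Lgals3bp segment covers 13.3% to 13.8% in the libraries labelled mock and 3.30% to 3.77% in those labelled overexpressing, and the Lgals1 segment is larger in the second group.

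Ratios of counts within a library do not depend on its scaling, and 4 were compared. The Lgals3bp to Lgals3 ratio was 6.15, 5.39 and 5.75 in mock replicates 1, 2 and 3 and 1.01, 1.01 and 1.17 in overexpressing replicates 1, 2 and 3. It was 5.43-fold lower in the libraries labelled overexpressing by the geometric mean. The Lgals9 to Lgals1 ratio was 0.171 ± 0.0137 and 0.0865 ± 0.0129, with no overlap, and the Lgals3 to Lgals1 ratio was 0.0982 ± 0.0080 and 0.123 ± 0.0127, also with no overlap. Each of these 3 had a two-sided exact permutation p of 0.1, the smallest that 20 allocations of the libraries can give, and 0.133 after Benjamini-Hochberg adjustment over the 4 ratios. The Lgals8 to Lgals1 ratio was 0.0674 ± 0.0038 and 0.0755 ± 0.0093, and overlapped (exact permutation p = 0.2, adjusted p = 0.2).

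The genes nearest to each of the 5 were found by the Euclidean distance between log2 CPM profiles over 6 libraries, each centred on its own mean, among 11861 protein-coding candidates. Nearest to Lgals3bp were Ifitm3, an interferon-induced membrane protein that blocks virus entry (distance 0.117), and the proteoglycan Ogn (0.147). Ifitm3 had 564 ± 8.27 and 106 ± 7.85 CPM. Nearest to Lgals9 were Nedd9, a scaffold of integrin signalling (0.0806, 95.5 ± 2.90 and 40.5 ± 1.93 CPM), and the heparan sulfate proteoglycan Sdc4 (0.13, 125 ± 3.32 and 48.9 ± 2.23 CPM). Nearest to Lgals3 were the autophagy gene Map1lc3b (0.0564) and Tfg (0.0569), nearest to Lgals8 were Drap1 (0.035) and Gypc (0.0393), and nearest to Lgals1 were Uqcrq, a subunit of respiratory complex III (0.058), and Wdr41 (0.0871). These distances describe profiles over 2 groups of 3 libraries and carry no test.

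Among 30 tested genes for proteins that bind galectins or Lgals3bp, 13 fell and 6 rose, 63.3% called against 45.3% of all tested genes, with a median log2 fold change of -0.20. Scaled by library size only, 11 fell and 6 rose, and the median was -0.091. Mcam (CD146), a surface glycoprotein, fell from 107 ± 8.95 to 30.3 ± 2.63 CPM (log2 fold change -1.82), and Lama5, a laminin chain, had -1.19 and Thy1, a surface glycoprotein of stromal cells, -0.89. Trim16, a ubiquitin ligase that works with galectin-3 at damaged lysosomes, rose from 95.6 ± 8.37 to 172.6 ± 5.76 CPM (log2 fold change 0.85, edgeR adjusted p = 2.95e-10). Cd44, a hyaluronan receptor that galectins also bind, had 880.0 ± 49.0 and 871 ± 10.8 CPM and was not called. Havcr2, the galectin-9 receptor Tim-3, had 11.8 ± 1.39 and 9.92 ± 0.39 CPM and was not called (edgeR adjusted p = 0.113).

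Among 28 enzymes and transporters that build or cap the sugar chains galectins bind, 12 fell and 4 rose, 57.1% called against 45.3% of all tested genes, with a median log2 fold change of -0.089. Scaled by library size only, 6 fell and 7 rose, and the median was 0.022. B4galt1, which adds galactose to N-glycans, fell from 294 ± 10.7 to 200.2 ± 8.67 CPM (log2 fold change -0.56), and B4galt5, a galactosyltransferase of glycolipids, had a log2 fold change of -0.51. Gcnt2, which makes branched poly-N-acetyllactosamine, fell from 25.0 ± 1.49 to 10.1 ± 1.66 CPM (log2 fold change -1.32), and B3gnt9 had -0.89. The 4 decreases remained called under library size only, where the median of all tested genes was 0.116 in place of 0.0052 and 65.8% of called genes were higher in place of 49.2%.

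Among 23 genes of the response to damaged lysosomes, where galectins 3, 8 and 9 are known to gather, 8 rose and 5 fell, 56.5% called against 45.3% of all tested genes, with a median log2 fold change of 0.12. Scaled by library size only, 15 rose and 4 fell, a scaling under which 4594 of all tested genes were higher and 2388 lower. The autophagy receptor Sqstm1 rose from 792 ± 46.1 to 1459 ± 21.3 CPM (log2 fold change 0.88, edgeR adjusted p = 2.1e-11), and the autophagy protein Gabarapl1 had 0.39. Trim16, Calcoco1, Lamp1 and Lamp2 are in the list of galectin-binding proteins as well, so the counts of these lists share genes. Trim16 rose as given above. Lamp2, a glycoprotein of the lysosomal membrane, fell from 687 ± 21.2 to 462 ± 19.6 CPM (log2 fold change -0.57).

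Other cell types that express galectins were looked for by their markers. Of 15 macrophage markers 5 were tested, 1 was lower (Csf1r) and none higher, and the summed level of the list was 24.8 to 27.8 CPM in the libraries labelled mock and 20.7 to 23.5 CPM in the others. Ptprc, Adgre1, Itgam, Mrc1, Fcgr1, Fcer1g, Tyrobp, C1qa and C1qb were under 1 CPM in every library, and Cd163 had no count. Of 10 Schwann cell markers 6 were tested, 5 were lower and none higher, and their summed level was 30.6 to 36.2 CPM in the libraries labelled mock and 4.73 to 5.27 CPM in the others, where Cdh19, Foxd3 and Gfra3 had 0 counts. Of 10 endothelial markers 5 were tested, 2 lower and 1 higher, with summed levels of 18.6 to 23.2 and 23.5 to 24.4 CPM, and Tie1, Vwf, Cldn5 and Esam were under 1 CPM in every library. Pecam1 ran from 1.11 to 1.42 CPM in the libraries labelled mock and from 0.159 to 0.242 CPM in the others. Emcn ran from 0.51 to 2.32 CPM and from 0 to 0.531 CPM. Both were at low levels, and the summed level of the endothelial list and its 1 marker called higher went the other way. Of 10 adipocyte markers 4 were tested, 1 lower and 1 higher, with summed levels of 70.5 to 72.4 and 79.0 to 86.2 CPM, and Cidec, Lep and Retn had no count. Lower in the same libraries as Lgals3bp, Lgals9 and Lgals1 were thus 5 of 6 tested Schwann cell markers and 8 of 12 stromal markers. Of all tested genes 23% were lower and 45.3% were called in either direction. Csf1r and Pecam1 were lower too, whereas the stromal markers Pdgfra, Cd44, Vim and Nt5e were not called. The part of these markers in the result was not tested.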

How the data were processed

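The submitters' processing notes name fastp, HISAT2 (2.0.5), StringTie (1.3.3b), featureCounts (1.5.0-p3) and mm39, with no role or order; no source used here gives the strand setting or annotation release. Raw counts were deposited by the authors per gene, with FPKM values, group means as a size-factor-scaled signal (not used here), and log2 fold changes with p-values, made with a tool that no source used here names. Gene lengths and positions come from the deposited table.

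Counts were tested over all 6 libraries by edgeR's quasi-likelihood test (edgeR 4.0.16, R 4.3.3), with TMM scaling, filterByExpr (minimum count 10), group as the only term and Benjamini-Hochberg adjustment over 14502 genes (threshold 0.05). CPM use TMM-scaled library sizes. SE is the log2 fold change over the square root of F. Alternatives were RLE factors, library size only, no filter, a minimum count of 50, DESeq2 (version 1.42.0), a replicate block, and leaving out each library. In simulated counts (14283 genes) 100 genes were changed 2-fold and 100 were changed 1.5-fold, in equal numbers up and down. The procedure recovered 92% of the 2-fold and 70% of the 1.5-fold changes, with 5 false calls of 167. In the data a far larger share of genes was called (45.3%), so these rates may not hold there.

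The 5 genes' counts per library ran from 1374 (95% Poisson interval 1302 to 1449) to 23267 (22970.0 to 23570.0); intervals and floors cover counting error only. Library pairs within a group differed beyond sampling noise, with a chi-square of 3.55 to 7.47 per degree of freedom.

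The members, lists and tests were chosen with earlier results of these data known. Context lists hold 125 entries and marker lists 58; Lgals6, Lgalsl2 and Rigi had no match. Named genes are the 5, the other galectins, up to 4 genes of smallest p per context list (adjusted p under 0.05, mean of at least 1 CPM, no overlap) and the 2 nearest profiles of each member. Heatr1, Cd44, Havcr2, Trim25, Calcoco1, Lamp1 and the integrin and marker genes were named besides. Protein sequences were not analysed here.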

Additional observations from a re-analysis of the deposited data

How the results depend on the processing

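Lgals1, Lgals9 and Lgals3bp kept their direction and their calls, and Lgals3 and Lgals8 stayed uncalled, under RLE factors, library size only, no filter, a minimum count of 50, DESeq2, the replicate block and each left-out library. Leaving out 1 library gave log2 fold changes of -2.45 to -2.37 for Lgals3bp, -1.33 to -1.25 for Lgals9, -0.35 to -0.21 for Lgals1, -0.17 to -0.090 for Lgals8 and -0.016 to 0.059 for Lgals3, whose sign turned without mock replicate 1. Under library size only, 7 glycan enzymes were higher and 6 lower, and 15 damaged-lysosome genes were higher; that scaling moves all log2 fold changes up by about 0.11, so Lgals1 was at -0.18 (adjusted p = 0.0316), Lgals3 at 0.14 (adjusted p = 0.06) and Lgals8 at -0.024. Shares from CPM per kilobase equal those from FPKM by construction and test nothing. With the replicate number as a block, 3183 genes were higher and 3297 lower, and no call of the 5 genes changed (Lgals3bp -2.41, Lgals9 -1.29, Lgals1 -0.30). A check of deviations from the group means gave no sign that same-numbered libraries were paired. Their deviations correlated at 0.0103, 0.0164 and 0.00337, and not every library correlated best with its own number. Libraries of different numbers correlated at -0.0331 to 0.0221. Correlations this small cannot show that the cultures were unpaired. With 3 libraries a group, the ratio tests cannot go below an exact permutation p of 0.1.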
